A study of Mus musculus with 28 samples.

Results

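The genes examined were 10 genes of classical histone deacetylases (HDACs), *Hdac1*, *Hdac2*, *Hdac3*, *Hdac4*, *Hdac5*, *Hdac6*, *Hdac7*, *Hdac8*, *Hdac9* and *Hdac11*. They were picked by name, as targets of short-chain fatty acids made by gut microbes, with earlier results of these data known. They are 10 of the 48587 genes in the count table, and all 10 were among the 15298 genes that passed the filter on low counts. Each gene is described by its CPM, the reads on the gene scaled to library size with TMM factors, in RNA of hippocampal microglia, the resident macrophages of the brain, from 28 mice.

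All mice were 16 weeks old, on a C57BL/6J background and, by the study's methods, male. Mice heterozygous for the 5xFAD transgenes, which express mutant human amyloid precursor protein and presenilin 1 from the neuron-specific Thy-1 promoter, were compared with wild-type (WT) littermates without the transgenes, so that the microglia themselves were not the cells in which the promoter is active. Mice were housed under specific pathogen-free conditions (SPF, 5 WT and 3 5xFAD mice), were germ-free (GF, 4 WT and 5 5xFAD mice), or were SPF mice that received a mix of antibiotics during the last 8 weeks (ABX, 5 WT and 6 5xFAD mice). Each library came from the sorted CD11b+CD45lo cells of 1 mouse, and where a mouse is singled out it carries its library title, in which FAD stands for 5xFAD. GF mice were bred in another facility than the SPF and ABX-treated mice, so that effects of the facility and of germ-free life cannot be told apart.

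HDACs remove acetyl groups from lysines of histones and of other proteins, which in most contexts compacts chromatin and lowers transcription. Class I enzymes (HDAC1, HDAC2, HDAC3 and HDAC8) are mainly nuclear, and all of them but HDAC8 act as the catalytic subunits of corepressor complexes. Class IIa enzymes (HDAC4, HDAC5, HDAC7 and HDAC9) have little catalytic activity of their own, bind MEF2 transcription factors and shuttle between nucleus and cytoplasm, HDAC6 of class IIb is a cytoplasmic deacetylase of tubulin, and HDAC11 is the only class IV enzyme. Butyrate and, more weakly, propionate inhibit class I and class IIa enzymes. This inhibition acts on the enzyme, and mRNA counts measure the transcript only.

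Libraries held between 14441610 and 29977395 reads on genes. Summed CPM of 8 microglial markers lay between 45200 and 64600 in all libraries, while 5 neuronal markers reached at most 16.3, 4 astrocyte markers at most 19.2 and 3 T cell markers at most 0.379. Summed markers of oligodendrocytes lay between 48.8 and 101 CPM, mostly *Mbp* and *Mag*, and those of endothelial cells between 9.42 and 54.0, mostly *Pecam1*, with *Cldn5* at no more than 0.0808. Of B cell genes, *Cd79b* lay between 22.5 and 52.7 CPM and *Cd79a* reached at most 0.59. Markers of border-associated macrophages reached 163 in ABX-treated 5xFAD mice, and 4 neutrophil markers lay between 48.6 and 193 in SPF 5xFAD mice against at most 0.177 in any WT library. The neutrophil markers also reached 105 CPM in FAD_ABX_1151, where the median of the ABX-treated 5xFAD mice was 0.126 CPM. In GF 5xFAD mice they reached at most 0.0495 CPM. By the study's methods the sort excluded cells stained for the neutrophil and monocyte antigens Ly6G and Ly6C, among other lineage antigens. The description of FAD_GF_201 reads GF WT while its other labels read 5xFAD, and it was used as a GF 5xFAD mouse. The library descriptions follow 3 styles of numbering that the labels do not explain: SPF and ABX WT mice share the same style, SPF 5xFAD mice share another with FAD_ABX_1151, and GF mice of both genotypes share the remaining style with 5 ABX 5xFAD mice, so that only GF 5xFAD against GF WT and ABX WT against SPF WT stay within a style. In bulk RNA, fewer cells of a type and less RNA per cell cannot be told apart.

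The genes covered a wide range of levels in microglia. Per kilobase of exon, *Hdac3*, the catalytic subunit of the NCoR/SMRT corepressor, and *Hdac2*, a subunit of the Sin3, NuRD and CoREST complexes, had the highest levels, at 15.3 ± 1.56 and 14.5 ± 1.84 CPM per kilobase (mean ± SD, n = 28 libraries). The order between them was not fixed, since *Hdac3* was the higher of the pair in 19 of 28 libraries. *Hdac5* of class IIa followed at 9.17 ± 1.51 CPM per kilobase and lay below *Hdac2* in 28 of 28 libraries. *Hdac1*, the close paralogue of *Hdac2*, had 6.85 ± 0.759 CPM per kilobase and lay below *Hdac5* in 26 of 28.

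The lower part of the order was taken by *Hdac6* at 4.19 ± 1.02, *Hdac11* at 2.99 ± 0.604 and *Hdac8* at 2.25 ± 0.57 CPM per kilobase. *Hdac9* and *Hdac4* could not be ordered, with 1.65 ± 0.394 and 1.58 ± 0.28 CPM per kilobase and *Hdac9* higher in 15 of 28 libraries. *Hdac7* stood far below, at 0.267 ± 0.162 CPM per kilobase, which corresponded to 4 to 107 reads in a library. Only between *Hdac4* and *Hdac7* did the ranges of neighbours in the order not overlap. *Hdac10*, the other class IIb gene, which is no member of the list, had 16.4 ± 2.92 CPM per kilobase.

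**Figure D1:**
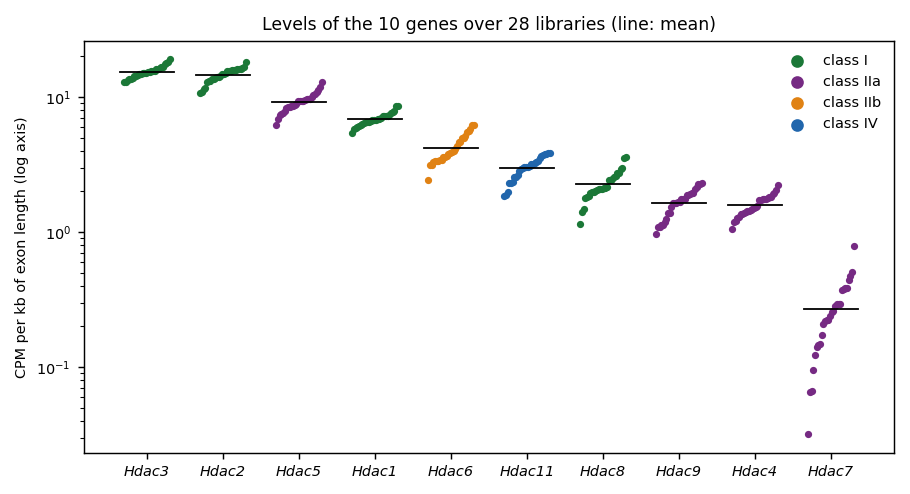
Levels of the 10 HDAC genes in CPM per kilobase of exon length on a log axis, with 1 point for each of 28 libraries, a line at the mean and colours for the enzyme class. *Hdac3* and *Hdac2* lie highest, and *Hdac7*, at a mean of 0.267, is separated from the other 9 genes.

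Some of these counts share sequence or position with other genes. Of the 50-base sequences in *Hdac1* transcripts (chromosome 4, 129516104 to 129542713, minus strand, GRCm38), 35.5% also occurred in transcripts of other genes, mostly in the pseudogene *Gm10093* on chromosome 17, which held 8 to 35 reads in a library against 285 to 692 on *Hdac1*. The level of *Hdac1* is therefore less certain than that of *Hdac2* (chromosome 10, 36974544 to 37001889), for which 0% of such sequences were shared. For *Hdac4* (chromosome 1, 91928779 to 92195699, minus strand), 22.4% of exonic bases overlapped the noncoding gene *Gm26720* on the opposite strand, which held at most 1 read in a library. The libraries do not mark strand, and 3536 of the 3538 bases of *Gm26720* lie in this overlap, so that its count does not show that it was silent. Whether reads there entered the count of *Hdac4* was not tested, and its level per kilobase may be too low. For *Hdac11* (chromosome 6, 91156665 to 91174692), 17.9% overlapped genes on the opposite strand, and the library kit does not mark strand, so that reads of the pair cannot be told apart there.

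RefSeq promoter windows were used for 8 of the 10 genes (not *Hdac1* and *Hdac3*). The 250 bases upstream of a start site are shown for 4 genes that the following results turn on, *Hdac2* as an abundant class I gene, *Hdac4* and *Hdac9* of class IIa, and *Hdac6*, with GC boxes (GGGCGG or its reverse complement CCGCCC, both strands searched) in capitals. The windows are chr10:36974294-36974543 on the plus strand for *Hdac2*, and chr1:92180342-92180591, chr12:34917096-34917345 and chrX:7947890-7948139 on the minus strand for *Hdac4*, *Hdac9* and *Hdac6* (GRCm38.p6). The *Hdac4* window lies at a start site inside the annotated gene, and the other 3 end at the border of the annotated gene.
Hdac2: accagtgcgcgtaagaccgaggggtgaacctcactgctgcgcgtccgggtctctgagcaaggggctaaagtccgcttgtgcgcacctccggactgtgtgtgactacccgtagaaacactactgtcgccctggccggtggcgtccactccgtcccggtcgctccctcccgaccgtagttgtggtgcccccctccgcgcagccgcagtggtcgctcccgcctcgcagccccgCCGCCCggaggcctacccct
Hdac4: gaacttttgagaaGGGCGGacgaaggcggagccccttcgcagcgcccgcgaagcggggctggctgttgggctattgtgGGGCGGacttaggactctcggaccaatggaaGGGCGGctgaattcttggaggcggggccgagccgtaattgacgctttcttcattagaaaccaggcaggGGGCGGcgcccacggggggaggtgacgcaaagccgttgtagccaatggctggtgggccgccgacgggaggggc
Hdac6: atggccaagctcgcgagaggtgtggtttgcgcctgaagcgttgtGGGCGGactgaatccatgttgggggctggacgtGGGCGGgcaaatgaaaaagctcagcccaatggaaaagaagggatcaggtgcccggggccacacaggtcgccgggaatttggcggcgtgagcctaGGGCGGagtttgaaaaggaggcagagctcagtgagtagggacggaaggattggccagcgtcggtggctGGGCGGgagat
Hdac9: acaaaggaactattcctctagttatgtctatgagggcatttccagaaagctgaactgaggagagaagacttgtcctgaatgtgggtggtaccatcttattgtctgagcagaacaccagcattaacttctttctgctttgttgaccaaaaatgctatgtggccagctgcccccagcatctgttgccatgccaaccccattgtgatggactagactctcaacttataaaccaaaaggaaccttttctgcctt

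*Hdac4* and *Hdac6* each held 4 GC boxes in these bases and *Hdac2* held 1, with GC contents of 65.2%, 61.2% and 68.8%. The *Hdac9* sequence shown held 0 GC boxes and 0 CpG dinucleotides, at a GC content of 44.4%. Another *Hdac9* window, chr12:34528890-34529139, held 0 GC boxes and 2 CpG dinucleotides, at a GC content of 43.6%. Of all 32851 RefSeq windows of this length, 32.7% held a GC box, and their median GC content was 52.4%. These matches describe the letters of the sequence and are no measurement of factor binding.

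Few differences of HDAC genes between the 6 groups passed the test. In the 9 comparisons of 2 groups, 1 of 90 gene and comparison pairs had an adjusted p-value under 0.05 in edgeR's quasi-likelihood test with Benjamini-Hochberg adjustment over all 15298 genes tested, against 7.39% of such pairs over all genes. An unadjusted p-value under 0.05 was found in 10 of 90, against 19.2% over all genes. The 95% interval of the log2 fold change lay between -1 and 1 in 81 of the 90 pairs, which were all pairs of the 9 genes other than *Hdac7*. The largest absolute log2 fold change among those 9 genes was 0.49, for *Hdac8*. In 4 of 90 pairs the CPM ranges of the groups did not overlap, against 9.57% of the pairs over all genes. By comparison this was the case for 16.9%, 14.8% and 6.83% in 5xFAD against WT mice under SPF, GF and ABX conditions, for 10.7% and 19.6% in GF against SPF WT and 5xFAD mice, for 1.22% and 2.39% in ABX-treated against SPF WT and 5xFAD mice, and for 10.9% and 2.82% in ABX-treated against GF WT and 5xFAD mice. The median absolute log2 fold change of the 10 genes lay between 0.08 and 0.23 in the 9 comparisons, against 0.15 to 0.34 for all genes tested. It was below that of all genes in 8 comparisons and reached it in SPF 5xFAD against WT mice, at 0.23 against 0.22. When each gene's 6 groups were ordered by mean CPM, all 50 pairs of neighbouring groups overlapped in their ranges, as did 98.1% of such pairs over all genes.

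In an F test for any difference among the 6 groups, 1 of the 10 genes was called, against 33.2% of all genes tested. The called gene was *Hdac4*. The called genes changed with the analysis: offsets for GC content called *Hdac3* (adjusted p = 0.0289) in place of *Hdac4*, against 28.4% of all genes, and library totals called *Hdac1* and *Hdac2*, against 36.1%. With voomWithQualityWeights of limma, the method named in the study's methods, 5 of the 10 genes were called in this test (*Hdac2*, *Hdac4*, *Hdac5*, *Hdac6* and *Hdac9*), against 51.4% of all genes.

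**Figure D2:**
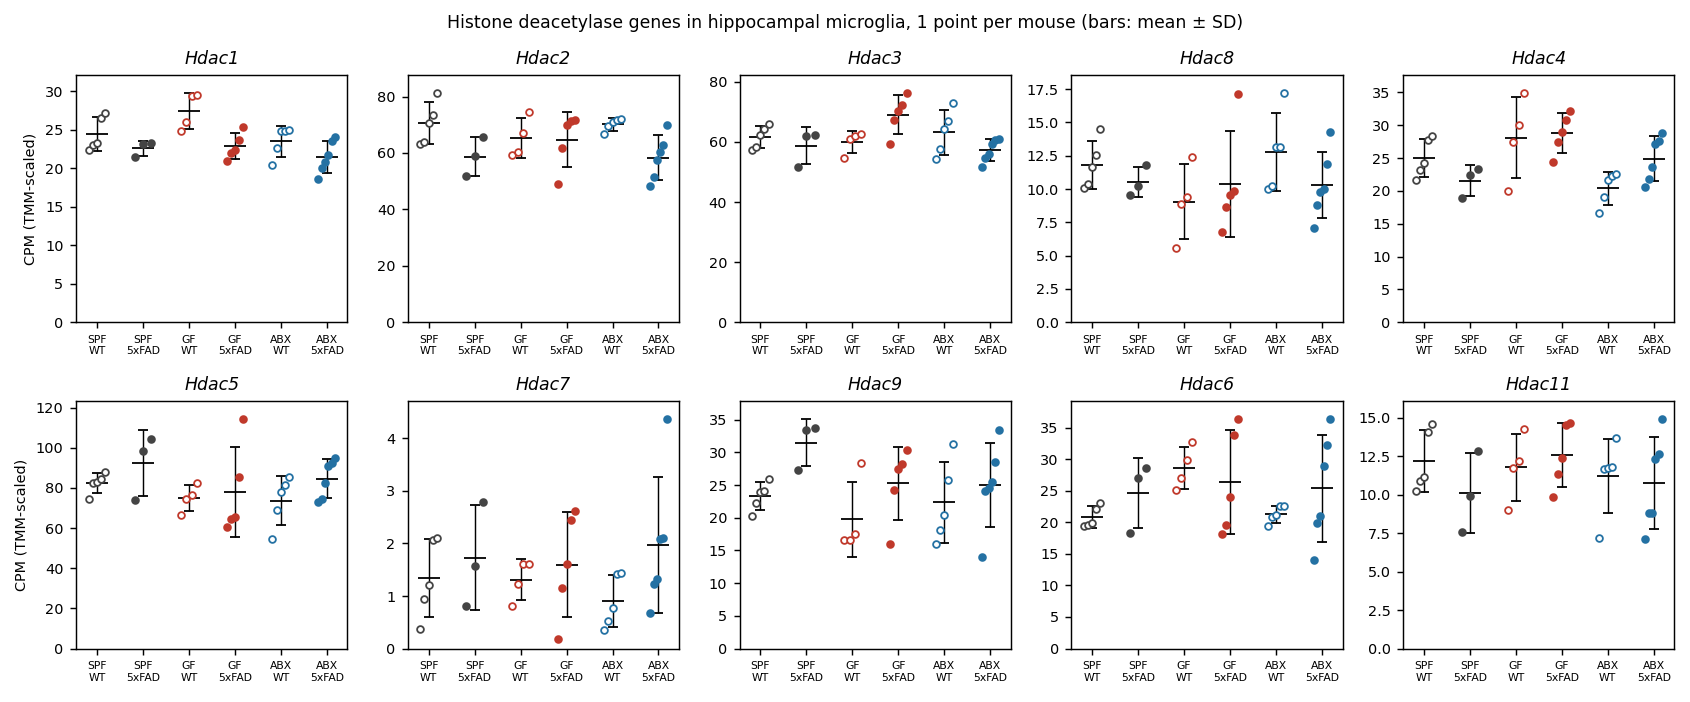
TMM-scaled CPM of the 10 HDAC genes in each mouse by group, open points for WT and filled points for 5xFAD mice, with bars for mean ± SD. Every gene has overlapping values in most groups, and *Hdac6* shows a wider spread in 5xFAD than in WT mice.

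The comparison of 5xFAD with WT mice asked whether amyloid pathology changed HDAC transcripts in each housing. In SPF mice 0 of 10 HDAC genes were called, against 4.57% of all genes tested. In GF mice 0 of 10 were called, against 15.6%, and in ABX-treated mice 0 of 10, against 14.4%. The unadjusted p-value was under 0.05 for 0 genes in SPF mice, for *Hdac1* and *Hdac3* in GF mice and for *Hdac2* and *Hdac4* in ABX-treated mice. Over the 10 genes the log2 fold changes had medians of -0.09 (SPF), 0.08 (GF) and 0.05 (ABX), against -0.03, -0.03 and -0.01 over all genes.

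The comparisons of housing asked whether missing or depleted microbes changed HDAC transcripts. GF against SPF mice gave 0 of 10 called genes in WT, against 1.62% of all genes, and 0 of 10 in 5xFAD mice, against 12.8%. ABX-treated against SPF mice gave 0 of 10 in both genotypes, against 0% of all genes in WT and 0% in 5xFAD mice. In the latter pair of comparisons edgeR called 0 of all genes, with 687 and 1085 genes at an unadjusted p-value under 0.05, where DESeq2 called 2 and 8 genes and voomWithQualityWeights 0 and 134, with 0 HDAC genes among them. GF and ABX-treated mice were compared with the same SPF mice. ABX-treated against GF mice gave 0 of 10 in WT, against 6.88%, and 1 of 10 in 5xFAD mice, against 10.6%. That gene was lower in ABX-treated mice, as were 6.07% of all genes.

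The 5xFAD effect was also compared between housings. For GF against SPF, ABX against SPF and ABX against GF, 0 of 10 HDAC genes were called in each case, against 0%, 0% and 1.76% of all genes in edgeR's quasi-likelihood test. In the comparisons with SPF, 1304 and 1032 of all genes had an unadjusted p-value under 0.05, with 25 and 1 genes called by DESeq2 and 116 and 14 by voomWithQualityWeights, and 0 HDAC genes among these. Unadjusted p-values under 0.05 were found for *Hdac4* in ABX against SPF and for *Hdac3* in ABX against GF.

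**Figure D3:**
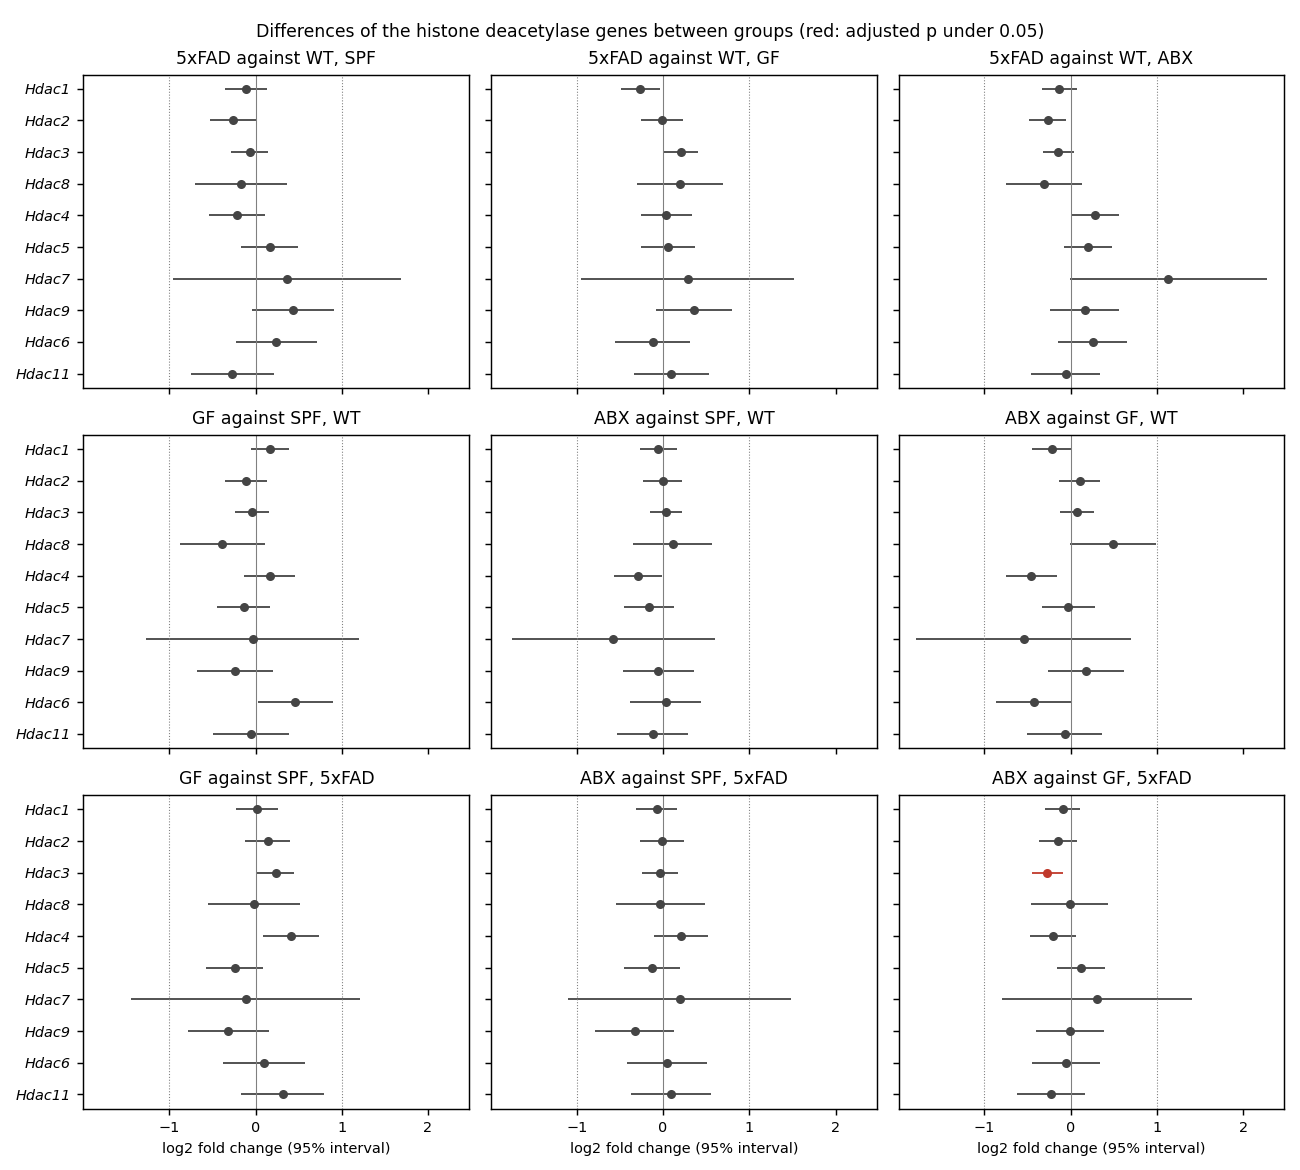
Log2 fold changes with 95% intervals of the 10 HDAC genes in 9 comparisons, with dotted lines at -1 and 1 and red for an adjusted p-value under 0.05. Intervals of all genes but *Hdac7* stay between the dotted lines, and *Hdac3* in ABX-treated against GF 5xFAD mice is the 1 red point.

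Among class I genes, *Hdac3* had the only call. Its CPM was 76.3, 59.3, 70.2, 67.3 and 72.4 in the 5 GF 5xFAD mice, and ranged from 51.6 over a median of 57.6 to 61.0 in the 6 ABX-treated 5xFAD mice. All GF 5xFAD mice but FAD_GF_182, at 59.3 CPM, lay above every ABX-treated 5xFAD mouse, and the ranges overlapped through it. The difference was -0.27 on the log2 scale (SE 0.0872, 95% interval -0.45 to -0.09, adjusted p = 0.0421, edgeR). The means were 69.1 ± 6.38 CPM in GF (SD, n = 5) and 57.2 ± 3.73 CPM in ABX-treated 5xFAD mice (SD, n = 6).

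The call of *Hdac3* depended on the analysis. It was kept in 4 of 10 alternatives, with adjusted p-values of 0.0124 with offsets for GC content, 0.0183 with DESeq2, 0.0272 with offsets for gene length and 0.046 with RLE factors. Its adjusted p-value was 0.122 with voomWithQualityWeights, 0.207 when only the groups compared were fitted and 0.247 within the numbering style shared by the GF mice and 5 ABX-treated 5xFAD mice. It was called in 12 of 28 fits that left out 1 mouse, with adjusted p-values from 0.0285 to 0.118, the highest without FAD_GF_181, while its sign was kept in all 38 alternatives. In the same groups, summed markers of border-associated macrophages ranged from 7.29 to 45.9 CPM in GF and from 24.7 to 163 CPM in ABX-treated 5xFAD mice, with 4 of 4 markers detected in both. Endothelial markers, of which *Cldn5* reached at most 0.0808 CPM in any library, ranged from 9.42 to 21.4 CPM and from 16.9 to 30.2 CPM. Neutrophil markers reached 0.0495 and 105 CPM, the latter in FAD_ABX_1151. The part of these cells in the result was not tested.

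In the other groups *Hdac3* had 65.8, 57.3, 58.2, 64.4 and 62.3 CPM in SPF WT, 60.9, 62.8, 61.8 and 54.5 in GF WT, and 72.9, 64.4, 67.0, 54.2 and 57.5 in ABX WT mice. In SPF 5xFAD mice it had 51.8, 62.1 and 62.5 CPM. These 4 groups overlapped with each other. GF 5xFAD mice had the highest group mean, 0.23 on the log2 scale above SPF 5xFAD mice (SE 0.106, adjusted p = 0.152) and 0.20 above GF WT mice (SE 0.0971, adjusted p = 0.168), and neither difference was called by edgeR. With offsets for GC content the difference from SPF 5xFAD mice was 0.34 and was called (adjusted p = 0.0351), and without FAD_SPF_1144 it was 0.15 (adjusted p = 0.512).

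*Hdac2* had its lowest means in SPF and ABX-treated 5xFAD mice. In SPF mice it had 63.3, 81.3, 73.3, 63.8 and 70.6 CPM in WT and 65.7, 58.9 and 51.7 CPM in 5xFAD mice, a log2 difference of -0.26 (SE 0.129, adjusted p = 0.356, edgeR) that was -0.17 without FAD_SPF_1148. In ABX-treated mice it had 66.5, 69.6, 72.1, 71.7 and 70.9 CPM in WT and 48.1 to 70.0 CPM, with a median of 59.0, in 5xFAD mice, where the log2 difference was -0.27 (SE 0.106, adjusted p = 0.0939). In GF mice the means were 65.3 ± 7.03 CPM in WT (SD, n = 4) and 64.8 ± 9.68 CPM in 5xFAD mice (SD, n = 5), with a log2 difference of -0.01 and a 95% interval from -0.25 to 0.23. With voomWithQualityWeights *Hdac2* was called in SPF mice (adjusted p = 0.00815), and with library totals in place of TMM factors it was called in ABX-treated mice (adjusted p = 0.0213), as it was with offsets for gene length (adjusted p = 0.0372), while offsets for GC content gave an adjusted p of 0.661 there.

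*Hdac1* had its highest mean in GF WT mice, with 26.1, 24.9, 29.5 and 29.4 CPM. GF 5xFAD mice had 22, 22.5, 20.9, 23.7 and 25.3 CPM, which overlapped with the WT mice through FAD_GF_201. The log2 difference was -0.26 (SE 0.109, adjusted p = 0.103, edgeR), and with library totals, which moved the median of all genes in this comparison from -0.03 to -0.15, the adjusted p-value was 0.0118. Means in the remaining groups lay between 21.4 and 24.4 CPM.

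*Hdac8*, an X-linked class I gene, had fewer reads, 104 to 419 in a library, and a CV between mice of up to 38.1% in GF 5xFAD mice. The highest group mean was 12.8 ± 2.92 CPM in ABX WT (SD, n = 5) and the lowest 9.06 ± 2.79 CPM in GF WT mice (SD, n = 4), a log2 difference of 0.49 (95% interval -0.003 to 0.99, adjusted p = 0.225, edgeR) that was 0.32 without WT_GF_230. None of its differences was called.

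Among class IIa genes, *Hdac4* had the only call of the F test over the 6 groups, with an adjusted p of 0.0363 (edgeR). Its CPM was 34.9, 27.5, 30.0 and, in WT_GF_199, 20 in GF WT mice, and 22.2, 16.6, 19.1, 21.6 and 22.6 in ABX WT mice. All GF WT mice but WT_GF_199 lay above all ABX WT mice. The log2 difference of ABX-treated against GF WT mice was -0.46 (SE 0.145, adjusted p = 0.0512). This difference was called in 4 of 9 alternatives, among them DESeq2 (adjusted p = 0.0244) and voomWithQualityWeights (adjusted p = 0.0127), and in 5 of 28 fits without 1 mouse, with adjusted p-values from 0.0129 without WT_GF_199 to 0.222 without WT_GF_229. In 5xFAD mice *Hdac4* had 18.9, 23.3 and 22.5 CPM under SPF and 30.8, 28.9, 27.4, 24.4 and 32.2 CPM under GF conditions, where the groups did not overlap.

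The log2 difference of GF against SPF 5xFAD mice was 0.41 (SE 0.16, adjusted p = 0.0856, edgeR), and 19.6% of all genes had groups that did not overlap in this comparison. With offsets for gene length the difference was 0.80 and was called (adjusted p = 0.0101), and it was called in 0 of 28 fits without 1 mouse. ABX-treated 5xFAD mice ranged from 20.6 to 28.8 CPM with a median of 25.4 and overlapped with both. SPF WT mice had 21.6, 23.2, 27.7, 24.3 and 28.3 CPM. With offsets for GC content the adjusted p-value of the F test was 0.15, with offsets for gene length 0.00157, and the gene was called in 14 of 28 fits without 1 mouse, with adjusted p-values from 0.00745 without WT_GF_199 to 0.104 without WT_ABX_910.

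*Hdac9*, which carries a MEF2-binding domain and also yields a splice form without the catalytic domain, had 20.3, 24.0, 24.1, 22.3 and 25.9 CPM in SPF WT and 33.5, 33.7 and 27.4 CPM in SPF 5xFAD mice. All SPF 5xFAD mice lay above all SPF WT mice, and 16.9% of all genes had groups that did not overlap in this comparison. The log2 difference of 0.44 (SE 0.23, 95% interval -0.04 to 0.91, adjusted p = 0.415, edgeR) was not called, and was called when only these groups were fitted (adjusted p = 0.0316). Summed neutrophil markers in the same groups were 48.6 to 193 CPM in SPF 5xFAD and at most 0.177 CPM in SPF WT mice, although the sort excluded Ly6G+ cells, and their part was not tested.

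In GF mice *Hdac9* had 28.4 CPM in WT_GF_199 and 16.6, 17.5 and 16.5 CPM in the other WT mice, against 28.2, 30.4, 27.5, 24.3 and 16.0 CPM in 5xFAD mice. All 5xFAD mice but FAD_GF_201 lay above the 3 lower WT mice. WT_GF_199 lay in the range of the 5xFAD mice, and FAD_GF_201 lay below all GF WT mice. The log2 difference was 0.35 (SE 0.216, adjusted p = 0.299, edgeR), and without WT_GF_199 it was 0.58 (adjusted p = 0.0927). The highest adjusted p-value of the edgeR fits without 1 mouse was 0.509, without WT_GF_231. Leaving out FAD_GF_201 moved the log2 difference of GF against SPF 5xFAD mice from -0.32 to -0.20. In ABX-treated mice the means were 22.4 ± 6.2 CPM in WT (SD, n = 5) and 25.0 ± 6.41 CPM in 5xFAD mice (SD, n = 6).

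*Hdac5* was the most abundant class IIa gene, with group means from 73.7 CPM in ABX WT to 92.3 CPM in SPF 5xFAD mice. Its spread between mice was wide in GF 5xFAD mice, with 114.2, 85.4, 60.3, 64.7 and 65.7 CPM, of which FAD_GF_181 was the highest of all 28 libraries. SPF 5xFAD mice had 73.8, 104.5 and 98.6 CPM, so that both groups overlapped, and the log2 difference of GF against SPF 5xFAD mice was -0.24 (SE 0.163, adjusted p = 0.367, edgeR). It was called with voomWithQualityWeights (adjusted p = 0.0287), and with offsets for gene length its value turned to 0.01. The difference was -0.42 without FAD_GF_181 (adjusted p = 0.0515) and -0.38 without FAD_SPF_1144 (adjusted p = 0.182).

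*Hdac7*, known for its part in thymocyte development, could be measured only coarsely. Its CPM ranged from 0.176 in FAD_GF_185 to 4.37 in FAD_ABX_1452, and the CV within a group reached 66.0%. The largest log2 difference was 1.13 in ABX-treated 5xFAD against WT mice (SE 0.558, 95% interval -0.01 to 2.27, adjusted p = 0.185, edgeR), and without FAD_ABX_1452 it was 0.72 (adjusted p = 0.451). Its 95% intervals reached past -1 or 1 in each of the 9 comparisons. FAD_ABX_1452 also had the highest summed level of border-associated macrophage markers, 163 CPM, and the part of these cells in its *Hdac7* level was not tested.

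*Hdac6*, the tubulin deacetylase, had 25.1, 27.0, 32.7 and 29.9 CPM in GF WT mice. SPF WT mice had 22.2, 19.6, 19.4, 23.1 and 19.8 CPM and ABX WT mice 19.3, 20.8, 21.2, 22.5 and 22.6 CPM. All GF WT mice lay above all mice of both other WT groups, where 10.7% and 10.9% of all genes had groups that did not overlap. The log2 differences were 0.46 for GF against SPF (SE 0.212, adjusted p = 0.264, edgeR) and -0.43 for ABX against GF (SE 0.213, adjusted p = 0.23), and neither was called. With the WT groups of GF and SPF mice fitted alone, the former was called (adjusted p = 0.0241), as it was with voomWithQualityWeights (adjusted p = 0.0485). Summed markers of border-associated macrophages were 9.81 to 28.9 CPM in GF WT, 3.36 to 7.97 in SPF WT and 3.6 to 5.41 in ABX WT mice. The part of these cells was not tested.

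In 5xFAD mice the groups of *Hdac6* overlapped throughout, with 18.2, 27.0 and 28.6 CPM under SPF, 19.6, 36.3, 33.8, 18.1 and 24.0 CPM under GF conditions, and 14.0 to 36.3 CPM with a median of 24.9 after ABX. The CV between 5xFAD mice was 22.7% under SPF, 31.4% under GF and 33.3% under ABX conditions, against 8.2%, 11.6% and 6.3% in the corresponding WT mice. The geometric mean over the 3 housings of the ratio of the 5xFAD to the WT CV was 3.41, above that of 99.8% of all genes tested. A higher CV in 5xFAD than in WT mice in all 3 housings was seen for 3 of 10 HDAC genes, *Hdac2*, *Hdac6* and *Hdac7*, against 19.8% of all genes. This measure was chosen after the values had been seen, so that it is given as a description, with no test.

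*Hdac11*, the class IV enzyme, which is known as a remover of longer fatty acyl groups and as a regulator of interleukin 10, had group means from 10.1 ± 2.63 CPM in SPF 5xFAD (SD, n = 3) to 12.6 ± 2.09 CPM in GF 5xFAD mice (SD, n = 5). The log2 difference between these groups was 0.31 (95% interval -0.17 to 0.79, adjusted p = 0.428, edgeR), with 0.14 without FAD_SPF_1144 and 0.50 without FAD_SPF_1146. All groups overlapped.

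The genes most like an HDAC gene across the 28 libraries were taken for the 3 genes with the smallest p-value in the F test. *Hdac4* followed *Dtx2*, *Stub1*, *Sharpin*, *Mbd3* and *Dbnl*, with Pearson's r of log2 CPM from 0.736 to 0.784 over 28 libraries and 8928 candidate genes. *Hdac1* was most like *Bfar*, *Tmem8c*, *Pxmp4*, *Oma1* and *Cd82* (r 0.631 to 0.696), and *Hdac3* most like *Thoc7*, *Ppt2*, *Mrps25*, *Mcee* and *Kdm1a* (r 0.608 to 0.642). Among the HDAC genes, *Hdac11* was closest to *Hdac4* (r = 0.509). The points share the groups, so that these values describe the libraries and no p-value is given.

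Of 6 listed receptors and transporters of short-chain fatty acids 3 could be tested, *Hcar2*, a receptor for butyrate and ketone bodies, and the monocarboxylate transporters *Slc16a1* and *Slc16a3*, and 3 of 3 rose in 5xFAD against WT mice in each of the 3 housings. *Ffar2* and *Slc5a8* had at most 1 read in a library and *Ffar3* had 0 reads in all 28. Among all genes 3.73%, 9.43% and 9.45% rose in SPF, GF and ABX-treated mice. *Hcar2* rose by 1.25, 2.02 and 1.21 on the log2 scale in SPF, GF and ABX-treated mice (adjusted p = 0.0154, 2.81e-05 and 0.00295, edgeR), *Slc16a1* by 0.80, 0.67 and 0.66 (adjusted p = 0.00773, 0.00861 and 0.00512) and *Slc16a3* by 0.78, 1.39 and 0.64 (adjusted p = 0.00168, 8.59e-08 and 0.00141).

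*Hcar2* had 15.5 ± 1.76 CPM in SPF WT (SD, n = 5) and 36.7 ± 12.4 CPM in SPF 5xFAD mice (SD, n = 3), and 11.0 ± 2.07 CPM in GF WT (SD, n = 4) and 45.0 ± 14.6 CPM in GF 5xFAD mice (SD, n = 5). In SPF mice the call of *Hcar2* was also lost without FAD_SPF_1146, and the calls of *Hcar2* and *Slc16a1* were lost without FAD_SPF_1144 (adjusted p = 0.171 and 0.134), the mouse with the highest summed neutrophil markers, 193 CPM after a sort that excluded Ly6G+ cells. The other SPF 5xFAD mice, FAD_SPF_1146 and FAD_SPF_1148, had 38.96 and 23.33 CPM of *Hcar2*, against at most 16.91 CPM in SPF WT mice. Their *Slc16a1* levels were 49.98 and 57.19 CPM, against at most 45.51 CPM in SPF WT mice. Both genes thus stayed above all SPF WT mice without FAD_SPF_1144, in a smaller 5xFAD group. These mice also held neutrophil markers, at 48.6 CPM or more. The part of neutrophils was not tested. Summed markers of border-associated macrophages also differed between the genotypes, with 24.7 to 163 CPM in ABX-treated 5xFAD against 3.6 to 5.41 in ABX WT mice and 11.6 to 20.7 in SPF 5xFAD against 3.36 to 7.97 in SPF WT mice, while GF 5xFAD and GF WT mice overlapped at 7.29 to 45.9 and 9.81 to 28.9 CPM. Endothelial markers, mostly *Pecam1*, were lower in GF 5xFAD mice, at 9.42 to 21.4 CPM, than in GF WT mice, at 28.6 to 35.5 CPM. The part of these cells in the rise of the 3 genes was not tested. *Slc16a3* had 117 ± 26.3 CPM in GF 5xFAD (SD, n = 5) and 72.8 ± 12.6 CPM in ABX-treated 5xFAD mice (SD, n = 6), and fell by 0.69 on the log2 scale in the latter (adjusted p = 0.00186, edgeR), a call that was lost within the numbering style shared by the GF mice. Within that style ABX-treated 5xFAD mice had 53.9 to 85.0 CPM and GF 5xFAD mice 76.9 to 139.6 CPM, while FAD_ABX_1151, of the other style, had 82.8 CPM.

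**Figure D4:**
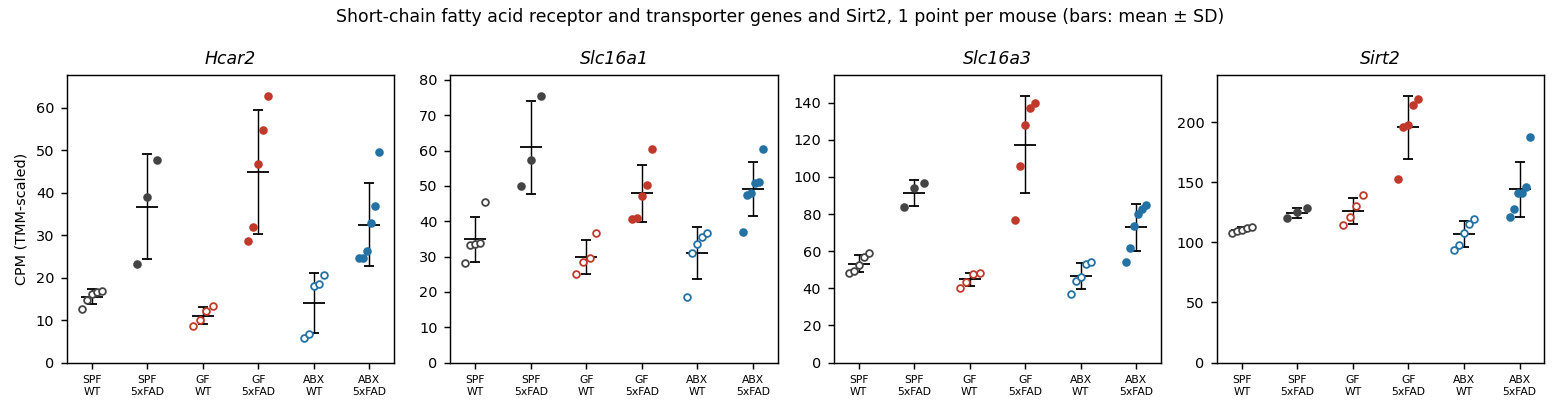
TMM-scaled CPM in each mouse of *Hcar2*, *Slc16a1* and *Slc16a3*, which encode a short-chain fatty acid receptor and transporters, and of the sirtuin *Sirt2*, with bars for mean ± SD. All 3 receptor and transporter genes have higher group means in 5xFAD than in WT mice in each housing, and *Sirt2* is highest in GF 5xFAD mice.

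Of the 7 sirtuins, the NAD-dependent deacetylases, which are not targets of butyrate, 2 were called in GF 5xFAD against WT mice, where 15.6% of all genes were. *Sirt2*, which like *Hdac6* encodes a tubulin deacetylase, was higher by 0.63 (log2, SE 0.109, adjusted p = 9.88e-05, edgeR), and *Sirt7* was lower, at -0.36 (adjusted p = 0.0235), a call that was lost with offsets for gene length and kept in 24 of 28 fits without 1 mouse. *Sirt7* was highest in GF WT mice, at 209.9 ± 23.0 CPM (SD, n = 4), and was also lower in ABX WT than in GF WT mice (log2 -0.39, adjusted p = 0.0343), a call lost with library totals and with offsets for GC content. *Sirt2* had 196 ± 26.1 CPM in GF 5xFAD (SD, n = 5) and 126 ± 10.7 CPM in GF WT mice (SD, n = 4). In GF against SPF 5xFAD mice 2 sirtuins were higher, against 6.97% of all genes. *Sirt5*, a mitochondrial desuccinylase, rose there by 1.04 (log2, adjusted p = 0.0227), a call lost with no low-count filter, with only the groups compared and without FAD_GF_184, FAD_SPF_1146 or FAD_SPF_1148. *Sirt2* also rose in GF against SPF 5xFAD mice (log2 0.65, adjusted p = 0.00166) and in ABX-treated 5xFAD against WT mice (log2 0.43, adjusted p = 0.00266), and was lower in ABX-treated than in GF 5xFAD mice (log2 -0.44, adjusted p = 0.00499). The last of these was called neither within the numbering style of the GF mice nor with only the groups compared. Within that style ABX-treated 5xFAD mice had 127.9 to 187.3 CPM and GF 5xFAD mice 152.7 to 219.1 CPM, while FAD_ABX_1151, of the other style, had 121.4 CPM.

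Subunits of the corepressor complexes in which class I enzymes act were called in both directions. Of 38 tested subunits, 6 were called in GF 5xFAD against WT mice (1 higher, 5 lower, against 9.43% and 6.2% of all genes), 7 in GF against SPF 5xFAD mice (5 higher, 2 lower, against 6.97% and 5.86%) and 0 in SPF 5xFAD against WT mice, against 4.57%. In the last comparison 2 had an unadjusted p-value under 0.05, as did 2182 of all 15298 genes, DESeq2 called 0 and voomWithQualityWeights called 1. A further 6 calls were found in ABX-treated 5xFAD against WT mice, against 14.4% of all genes, 7 in ABX-treated against GF WT mice, against 6.88%, 4 in ABX-treated against GF 5xFAD mice, against 10.6%, and 2 in GF against SPF WT mice, against 1.62%. With offsets for GC content these 4 counts were 4, 2, 2 and 1, against 12%, 1.65%, 9.35% and 0.837% of all genes. Within the numbering style of the GF mice 0 were called in ABX-treated against GF 5xFAD mice. That fit held fewer libraries, so that its count cannot be compared with those of the fits over all libraries. In GF against SPF 5xFAD mice the NCoR/SMRT subunits *Tbl1xr1* fell by 0.84 on the log2 scale (adjusted p = 0.000627, edgeR) and *Gps2* rose by 0.58 (adjusted p = 0.00327), and the same directions were called in WT mice, by 0.58 and 0.55 (adjusted p = 0.0137 and 0.0105). With offsets for GC content 4 subunits were called in GF against SPF 5xFAD mice (3 higher, 1 lower), where 9.66% of all genes were, and the calls of *Sin3b*, *Gatad2a*, *Zmym2* and *Mbd3* were lost (adjusted p = 0.191, 0.0701, 0.0516 and 0.119). The calls of *Tbl1xr1* in WT mice and of *Mbd3*, a NuRD subunit that rose by 0.51 in GF against SPF 5xFAD mice (adjusted p = 0.0112), were lost with offsets for GC content, and that of *Mbd3* also without FAD_SPF_1146 or FAD_SPF_1148. Beside all lists compared between GF and SPF 5xFAD mice, sirtuins included, summed neutrophil markers were 48.6 to 193 CPM in SPF 5xFAD and at most 0.0495 CPM in GF 5xFAD mice. Endothelial markers, with *Cldn5* at no more than 0.0808 CPM in any library, were 23.9 to 29.7 and 9.42 to 21.4 CPM, and 28.6 to 35.5 CPM in GF WT mice. Markers of border-associated macrophages were 9.81 to 28.9 CPM in GF WT, 3.6 to 5.41 in ABX WT and 3.36 to 7.97 in SPF WT mice. They were 7.29 to 45.9 CPM in GF and 24.7 to 163 CPM in ABX-treated 5xFAD mice. The part of these cells in the differences between the groups was not tested.

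Of 9 tested partners of class IIa enzymes, 4 were called in GF against SPF 5xFAD mice (1 higher, 3 lower, against 6.97% and 5.86% of all genes). With offsets for gene length or for GC content 2 were called (1 higher, 1 lower), where 9.42% and 9.66% of all genes were. In the other 8 comparisons 0 to 2 were called, where 0% to 15.6% of all genes were. *Camk1*, a calmodulin-dependent kinase, rose by 0.34 on the log2 scale (adjusted p = 0.00948, edgeR), a call lost with no low-count filter and without FAD_SPF_1146. *Mef2a*, a transcription factor that class IIa enzymes bind, fell by 0.67 on the log2 scale (adjusted p = 0.00344, edgeR), or by 0.31 and 0.44 with offsets for gene length and GC content, where it stayed called. It also fell by 0.53 in WT mice (adjusted p = 0.0379), where the call was lost with offsets for GC content and kept in 21 of 28 fits without 1 mouse. *Mef2c*, which fell by 0.31 (adjusted p = 0.0134), lost its call with offsets for gene length or GC content and without FAD_SPF_1144 or FAD_SPF_1148. *Prkd3*, of the protein kinase D family, fell by 0.46 (adjusted p = 0.0313), a call lost with either of these offsets and with only the groups compared, and kept in 23 of 28 fits without 1 mouse. Of 13 acetyltransferases, the enzymes that oppose HDACs, 4 fell in GF against SPF 5xFAD mice (*Kat6b*, *Kat6a*, *Ncoa2* and *Ep300*), against 5.86% of all genes, and all 4 calls were lost with offsets for gene length, with each kept in 25 or 26 of 28 fits without 1 mouse. In the other 8 comparisons 0 to 2 acetyltransferases were called, against the same shares of all genes. Of 3 BET readers of acetylated histones, edgeR called 0 in each of the 9 comparisons, against 7.39% of gene and comparison pairs over all genes. At most 2 had an unadjusted p-value under 0.05, in GF 5xFAD against WT mice, as did 4271 of all 15298 genes, while DESeq2 called 1 in ABX-treated against GF WT mice and voomWithQualityWeights called 1 there and 1 in SPF 5xFAD against WT mice.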

How the data were processed

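RNA of sorted hippocampal microglia was amplified with a SMARTer kit and tagmented, a preparation that does not mark strand. The deposited table holds raw counts of reads per gene, which the authors made with STAR and featureCounts on GRCm38 and GENCODE M21 per the study's methods. The submitters' processing notes name STAR 2.7.2, featureCounts 1.6.2 and, as a build, GRCh38.p12, although the gene symbols are mouse. Handling of reads that map to several places is not given in the sources used here. Start, end and summed exon length matched GENCODE M21 for 8 of the 10 genes (not *Hdac3* and *Hdac7*). The 92 spike-in entries, with at most 12 reads in a library, were set aside.

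Genes were kept by filterByExpr (minimum count 10, minimum total 15). Counts were scaled by TMM and tested with edgeR 4.0.16 (glmQLFit, glmQLFTest) in R 4.3.3, in a model with 1 term per group over all 28 libraries. P-values were adjusted by Benjamini-Hochberg over all genes tested, and a gene was called at an adjusted p-value under 0.05. Alternatives used DESeq2 1.42.0, voomWithQualityWeights of limma 3.58.1, other scalings, no filter, offsets for gene length or GC content, fewer groups and each mouse left out. A check on simulated counts, drawn independently for each library, was also run, and its outcome is not reported here. Marker sums are CPM on library totals. Figures were drawn with matplotlib 3.10.9.

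Groups came from the labels. Pairs of libraries of a group differed by 6.52 to 79.2 chi-square units per degree of freedom, so that each was counted as a library of its own. The 10 genes and the other lists were chosen with earlier results of these data known, so that no list is independent evidence. All 10 genes were named. For each of the 3 with the smallest p-value in the F test, the 5 genes with the highest correlation of log2 CPM (prior count 2) and a mean of at least 3 log2 CPM were named. From each other list, genes among the 3 smallest p-values of a comparison with a call were eligible, and *Ep300* and *Prkd3*, the remaining called genes of their lists in GF against SPF 5xFAD mice, were named after their values were seen. *Hdac10* was listed apart from the 10 genes and was called in 0 comparisons.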

Additional observations from a re-analysis of the deposited data

Results flagged for a closer look

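*Hdac9* in WT_GF_199 had 28.4 CPM, far from the 16.5 to 17.5 CPM of the other GF WT mice. It was the 1 distant mouse among the 50 gene and group combinations examined, and chance gives such a mouse in about 1 in 20 groups.

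The 5xFAD effect on *Slc16a3*, a monocarboxylate transporter, differed between ABX-treated and GF mice by -0.75 on the log2 scale (edgeR's interaction term, adjusted p = 0.0486), with a smaller rise after ABX. The call was lost with library totals and without a filter on low counts, and was kept in 7 of 28 fits without 1 mouse.

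Reads on the spike-in entries, which the comparisons do not use, were found in every library, with 1 to 12 reads.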

How the results depend on the processing

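No paired analysis was possible because the mouse numbers are not shared between groups. Leaving out 1 mouse at a time gave 0 to 1 called HDAC genes in ABX-treated 5xFAD against WT, in ABX-treated against GF WT and 5xFAD mice and in the F test, log2 fold changes from -0.32 to -0.23 for *Hdac3* in ABX-treated against GF 5xFAD mice, and adjusted p-values from 0.00745 to 0.104 for *Hdac4* in the F test. The *Hdac3* value of -0.27 was no longer called with library totals (-0.19), no filter (-0.24), voomWithQualityWeights (-0.24), without FAD_ABX_1151 and FAD_ABX_1482 (-0.28), with only the groups compared (-0.24) or within a numbering style (-0.26), which left 0 called genes in that comparison. For *Hdac4* the F test gave adjusted p-values of 0.121 with library totals, 0.0951 with no filter and 0.15 with offsets for GC content, an alternative added after the data were seen. Called HDAC genes in the F test numbered 2 with library totals (*Hdac1* and *Hdac2*), 0 with no filter and 5 with voomWithQualityWeights. A count of 0 became 1 with voomWithQualityWeights (SPF 5xFAD against WT, GF against SPF in both genotypes, ABX against GF WT), with only the groups compared (SPF 5xFAD against WT, GF against SPF WT), with library totals (GF and ABX 5xFAD against WT), with gene length offsets (*Hdac2* in ABX 5xFAD against WT, *Hdac4* in GF against SPF 5xFAD and ABX against GF WT), with GC content offsets (*Hdac3* in GF against SPF 5xFAD), and with DESeq2 or without FAD_ABX_1151 and FAD_ABX_1482 (ABX against GF WT). The share of all genes called moved with the analysis too, as given above for the F test, so that these counts do not describe the HDAC genes alone. The causes were not tested. *Hdac7* had the fewest reads, 4 to 107 in a library, and 3 SPF 5xFAD mice limit the comparisons with that group.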
